A study of Mus musculus with 7 samples.

Results

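Frizzled receptors, their co-receptors and the TCF factors at the other end of the Wnt pathway were followed through mouse skin papillomas that did or did not express p16. The 10 genes were Fzd1, Fzd2, Fzd6, Fzd7, Ryk, Lrp5, Lrp6, Tcf7l1, Tcf7l2 and Wls, taken by gene name from the 14820 genes of the deposited expression table, and all 10 were present. RNA was profiled from 3 p16 papillomas and 4 control papillomas, each a whole benign skin tumour from a mouse aged 27 weeks. The p16 mice carried both K5-rtTA and tet-p16, so that doxycycline in the drinking water switched on a human p16 transgene in cells that use the Krt5 promoter, which in skin are the basal keratinocytes. The control mice were siblings with tet-p16 alone and no driver. Both groups received a single 50 nmol dose of DMBA, a mutagen, when 3 weeks old, then the tumour promoter TPA repeatedly, and doxycycline, and they were killed 10 days after the last TPA dose. The mice were female and of mixed C57Bl6, 129sv and FVB background. The labels do not say which papillomas came from the same mouse, and a p-value here speaks only of how far these lesions vary.

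Frizzled proteins are seven-pass receptors that bind Wnt ligands together with Lrp5 or Lrp6, and the receptor complex then holds off the destruction of beta-catenin. Stabilised beta-catenin enters the nucleus and binds TCF factors, which repress Wnt target genes without it and activate them with it. In skin this pathway is known for hair follicle formation and for keeping stem cells of the follicle and epidermis, and Tcf7l1 (Tcf3) and Tcf7l2 (Tcf4) are the family members known from hair follicle stem cells.

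The receptors can be recognised in their coding sequence by the element through which they signal, and a short stretch of it is shown for each to place the paralogs beside each other. In the frizzled receptors this is the K-T-any-any-any-W motif just after the last membrane pass, which binds Dishevelled. Each of the 4 coding sequences held it 1 time, and its 18 bases are in capitals, read 5′ to 3′ from the GENCODE M21 transcripts (GRCm38).
Fzd1: tccggcAAGACACTGAATTCCTGGaggaag
Fzd2: tccggcAAGACACTGCACTCGTGGaggaag
Fzd6: agcaaaAAGACGTGCACAGAATGGgccggg
Fzd7: tcgggcAAGACCCTGCAGTCATGGcgtcgc
Over these 30 bases Fzd1 and Fzd2 differed at 3, Fzd1 and Fzd7 at 10, and Fzd6 differed from the other 3 receptors at 19 or 20. Lrp5 and Lrp6 signal through repeats of the motif P-P-P-S/T-P in their intracellular tails, which are phosphorylated and bind axin. A search for exactly this pattern found 3 matches in each coding sequence, and the first is in capitals. Repeats that depart from the pattern were not counted.
Lrp5: ctgaacCCACCCCCGTCCCCGgccacagac
Lrp6: ttgaacCCACCACCATCGCCTgccacagaa
These 2 stretches differed at 6 of 30 bases. Over their whole transcripts the paralogs share runs of sequence, the longest being 47 bases for Fzd1 with Fzd2 and for Fzd1 with Fzd7. The libraries, however, read the 3′ ends of transcripts, so 1 annotated transcript per gene was also compared over its last 500 bases. There, no pair of frizzled members, of Lrp5 and Lrp6 or of Tcf7l1 and Tcf7l2 shared a run longer than 10 bases. Other annotated ends were not compared, where Tcf7l1 has 5 transcripts and Tcf7l2 has 22. The Tcf7l1 transcript used has 1888 bases, 1797 of them coding, so the stretch compared was mostly coding. At Fzd6, Tcf7l1 and Wls the annotation places another gene on the opposite strand, and whether counting used strand is not given in the sources used here. At Ryk, Tcf7l1, Tcf7l2 and Wls it places another gene on the same strand, which counting by strand would not separate.

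The values are read counts that the authors divided by 1 size factor per papilloma, called normalised read counts below, with 2407665, 1158035 and 4365391 reads in the p16 papillomas and 2723298 to 4119715 in the control papillomas. A single read was worth 0.735 to 2.89 normalised counts in p16 papillomas and 0.854 to 1.21 in control papillomas, so the low genes were measured least finely in p16 papilloma 2. The levels of several marker lists differed between the papillomas. Of the suprabasal keratinocyte list, 4 of 9 genes rose in p16 papillomas (Krt1, Krt10, Flg and Ivl) and its summed level was 93524 to 135594 in p16 papillomas, against 56613 to 69264 in control papillomas. In the basal keratinocyte list Itga3 and Itga6, integrin subunits that anchor basal cells, were among the genes tested and fell, with sums over the list of 34853 to 48128 in p16 papillomas and 45937 to 71927 in control papillomas. The skeletal muscle sum was 293, 11876 and 2574 in p16 papillomas 1, 2 and 3, against 219 to 674 in control papillomas, although 0 of its 12 genes passed the test. In the fibroblast list 3 of 11 tested genes rose (Dcn, Mfap5 and Thy1), with sums of 4232 to 19946 in p16 papillomas and 4833 to 13526 in control papillomas. In the adipocyte list 3 of 5 tested genes rose (Adipoq, Car3 and Cfd), and the other 2 had negative changes that did not pass. Adipocyte sums were 1961 to 2596 in p16 papillomas, against 11341, 4944, 1887 and 5304 in control papillomas 1, 2, 3 and 5. In the hair follicle stem cell list Nfatc1 rose and Cd34 and Foxc1 fell among 6 tested, with sums of 391 to 505 in p16 papillomas and 500 to 1240 in control papillomas, the highest in control papilloma 3. None of the 8 endothelial, 8 immune and 1 melanocyte or Schwann genes tested passed. The summed ranges of these 3 lists overlapped between the groups, and no marker of any list was at 0 in every papilloma. In a whole lesion, fewer cells of a type and less RNA per cell cannot be told apart.

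The comparison asks whether receptors and nuclear effectors of the pathway are at another level in whole papillomas of mice with p16 switched on. In induced skin the study found p16 protein in only a part of the epidermal keratinocytes. A level here is therefore a mean over cells with and without p16, and their shares in these papillomas were not measured here. None of the 10 genes passed. With limma on log2(normalised read count + 1) and p-values adjusted over 10466 tested genes, 588 genes (5.62%) had an adjusted p under 0.05, 278 of them higher and 310 lower in p16 papillomas, and 0 of the 10 members were among them. The number of called genes depended on the fit, at 114 higher and 153 lower without p16 papilloma 2, 29 higher and 24 lower with the mean level of the muscle and adipocyte lists as a covariate, and 38 higher and 42 lower with that of the basal keratinocyte list, and no member was called in these fits either. At an unadjusted p under 0.05, which 21.2% of all tested genes reached, the count of members was also 0. The same holds for edgeR, for DESeq2 and for limma-voom, each run on reads recovered from the table. The values of the 2 groups overlapped for all 10 members, whereas 19.6% of all tested genes had groups that did not overlap. All 10 members passed the filter on low values, and all 10 carried the authors' mark for expression in sorted keratinocytes, as 82.6% of the table did.

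**Figure D1:**
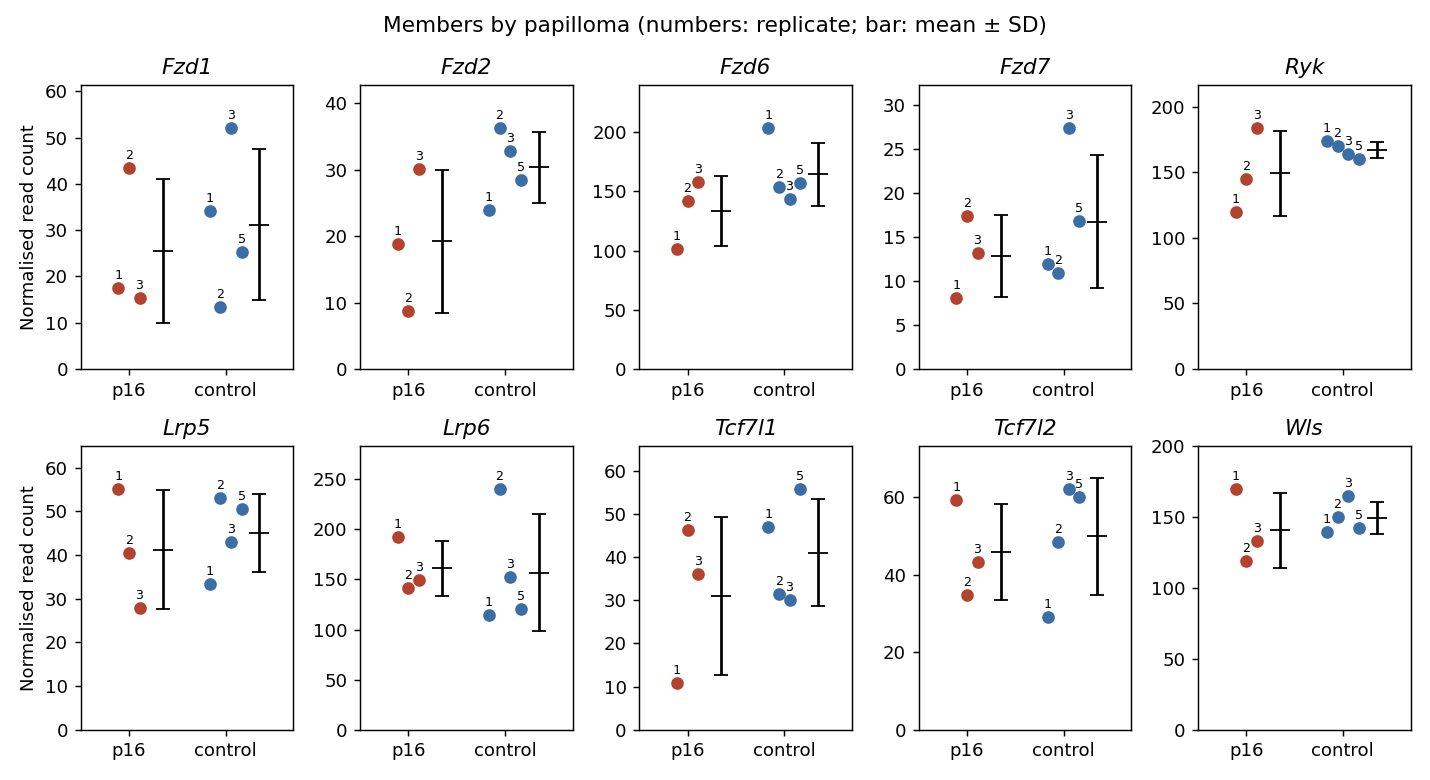
Normalised read count (y axis, linear from 0, its own scale in each panel) of each member in each papilloma, with p16 papillomas in red on the left and control papillomas in blue on the right. Numbers are replicates, and the black bar gives the mean ± SD of 3 p16 or 4 control papillomas. In every panel the 2 groups overlap, and p16 papilloma 1 lies far below the other p16 papillomas for Tcf7l1 (10.8 normalised read counts).

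Of the receptors, Fzd6, which is known for planar polarity of hair follicles and can hold back canonical signalling, gave 101, 142 and 158 normalised read counts in p16 papillomas 1, 2 and 3, against 203, 153, 143 and 157 in control papillomas 1, 2, 3 and 5. Papilloma 1 was the lowest of the p16 group and papilloma 1 of the control group the highest, and the other 5 lay together between 142 and 158. The means were 134 ± 29.4 in p16 papillomas (SD, n = 3) and 164 ± 26.6 in control papillomas (SD, n = 4), a log2 change of -0.31 (95% interval -0.75 to 0.13, adjusted p = 0.412). The gene lies at chr15:39006034-39038188.

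Fzd2, a receptor for canonical and non-canonical Wnts at chr11:102604396-102608058, gave 18.8, 8.68 and 30.1 normalised read counts in p16 papillomas, against 23.9, 36.2, 32.9 and 28.4 in control papillomas. Of the p16 papillomas, 2 lay below every control papilloma and papilloma 3 lay among them. This was the furthest of the 10 members from no difference, at a log2 change of -0.77 (SE 0.39, 95% interval -1.62 to 0.07, adjusted p = 0.278, unadjusted p = 0.0695). As a fold on the same scale, that is 0.585 with an interval of 0.326 to 1.05. On the recovered reads the log2 change was -0.51 with edgeR, -0.53 with DESeq2 and -0.40 with limma-voom. The value in p16 papilloma 2 rested on 3 reads, for which the exact 95% Poisson interval is 0.619 to 8.77 reads, or 1.79 to 25.4 normalised read counts, counting error only. Without that papilloma, which also had the fewest reads and the highest muscle sum, the log2 change was -0.32 and the adjusted p 0.659. Without p16 papilloma 3 it was -1.16 with an adjusted p of 0.118, the lowest that any member reached in any alternative.

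Fzd1, a canonical receptor close to Fzd2 in sequence (chr5:4753839-4758035), gave 17.5, 43.4 and 15.4 normalised read counts in p16 papillomas and 34.2, 13.3, 52.0 and 25.3 in control papillomas. Each group held both low and high papillomas, with a ratio of highest to lowest of 2.81 in the p16 group and 3.92 in the control group. This spread was wider than reads alone would give, since the SD was 15.6 in p16 papillomas where counting error alone gives 7.31, and 16.3 in control papillomas where it gives 5.46. Fzd1 had a log2 change of -0.28 (95% interval -1.31 to 0.74, adjusted p = 0.782).

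Fzd7, the receptor best known from stem cells of the intestine (chr1:59482424-59486955), had the lowest values, 8.07, 17.4 and 13.2 normalised read counts in p16 papillomas and 12.0, 10.9, 27.4 and 16.9 in control papillomas. They came from 30 reads in the p16 group and 69 in the control group. Its SD in p16 papillomas, 4.66, was no larger than the counting error of 4.86, whereas in control papillomas the SD was 7.54 and the counting error 4.07. Fzd7 had a log2 change of -0.33 (95% interval -1.27 to 0.62, adjusted p = 0.713).

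Ryk, a single-pass Wnt receptor of the tyrosine kinase family whose kinase domain is inactive (chr9:102834917-102908305), gave 120, 145 and 184 normalised read counts in p16 papillomas, against 174, 170, 164 and 160 in control papillomas. The control papillomas were nearly level, with an SD of 6.24 that lay below the counting error of 13.0, and the p16 papillomas lay on both sides of them with an SD of 32.3. For Ryk the log2 change came to -0.18 (95% interval -0.57 to 0.20, adjusted p = 0.595).

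Of the co-receptors, Lrp6 (chr6:134446476-134566965) gave 192, 142 and 149 normalised read counts in p16 papillomas and 114, 240, 152 and 120 in control papillomas. All 3 p16 values lay inside the control range, which was wide because of control papilloma 2, and the control SD of 58.2 was well above its counting error of 12.8. Lrp6 was the single member with a positive change, 0.09 on the log2 scale (95% interval -0.46 to 0.64, adjusted p = 0.876). That sign did not hold when p16 papilloma 1, control papilloma 1 or control papilloma 5 was left out (-0.04, -0.04 and -0.01), and without control papilloma 2 the log2 change was 0.32.

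Lrp5 (chr19:3584828-3686564) gave 55.2, 40.5 and 27.9 normalised read counts in p16 papillomas and 33.3, 53.2, 42.9 and 50.6 in control papillomas. The p16 papillomas included both the highest and the lowest of all 7. For Lrp5 the log2 change came to -0.15 (95% interval -0.77 to 0.46, adjusted p = 0.801). Added within each papilloma, Lrp5 and Lrp6 came to 248, 182 and 177 in p16 papillomas and 148, 294, 195 and 171 in control papillomas, again with no separation.

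Of the TCF factors, Tcf7l1 (chr6:72626378-72789254), mostly a repressor of Wnt targets, gave 10.8, 46.3 and 36.0 normalised read counts in p16 papillomas, against 47.0, 31.4, 30.1 and 55.8 in control papillomas. Papilloma 1 of the p16 group was the lowest of all 7, and the other 2 p16 papillomas lay within the control range. The log2 change was -0.57 (SE 0.44, 95% interval -1.53 to 0.39, adjusted p = 0.499), and it rested on that papilloma. Without it the p16 mean was 41.2 normalised read counts, against 41.1 in control papillomas, and the log2 change was 0.04. The low value was 8 reads, with an exact Poisson interval of 4.65 to 21.2 normalised read counts that lies below the values of the other 6 papillomas.

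Tcf7l2 (chr19:55741820-55933654) activates Wnt targets with beta-catenin in many tissues, but the study describes it, like Tcf7l1, as often a repressor of them. Tcf7l2 gave 59.2, 34.7 and 43.4 normalised read counts in p16 papillomas and 29.0, 48.3, 62.1 and 60.1 in control papillomas. The highest and the lowest of all 7 were both control papillomas. Between the group means the log2 change was -0.10 (95% interval -0.75 to 0.56, adjusted p = 0.891). The ratio of Tcf7l1 to Tcf7l2 within a papilloma was 0.182, 1.33 and 0.831 in p16 papillomas and 1.62, 0.650, 0.485 and 0.930 in control papillomas. The ratio compares papillomas and not the levels of the 2 genes. It varied several-fold inside each group, and 2 of the 3 p16 papillomas lay in the control range.

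Wls (Wntless, chr3:159839672-159938664) encodes the carrier that takes Wnt ligands to the cell surface, so it belongs to the sending cell. It gave 169, 119 and 133 normalised read counts in p16 papillomas and 139, 150, 164 and 142 in control papillomas. The p16 values reached from below to above the control range. The means were 140 ± 26.2 in p16 papillomas (SD, n = 3) and 149 ± 11.2 in control papillomas (SD, n = 4), and the log2 change was -0.10 (95% interval -0.48 to 0.28, adjusted p = 0.799).

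**Figure D2:**
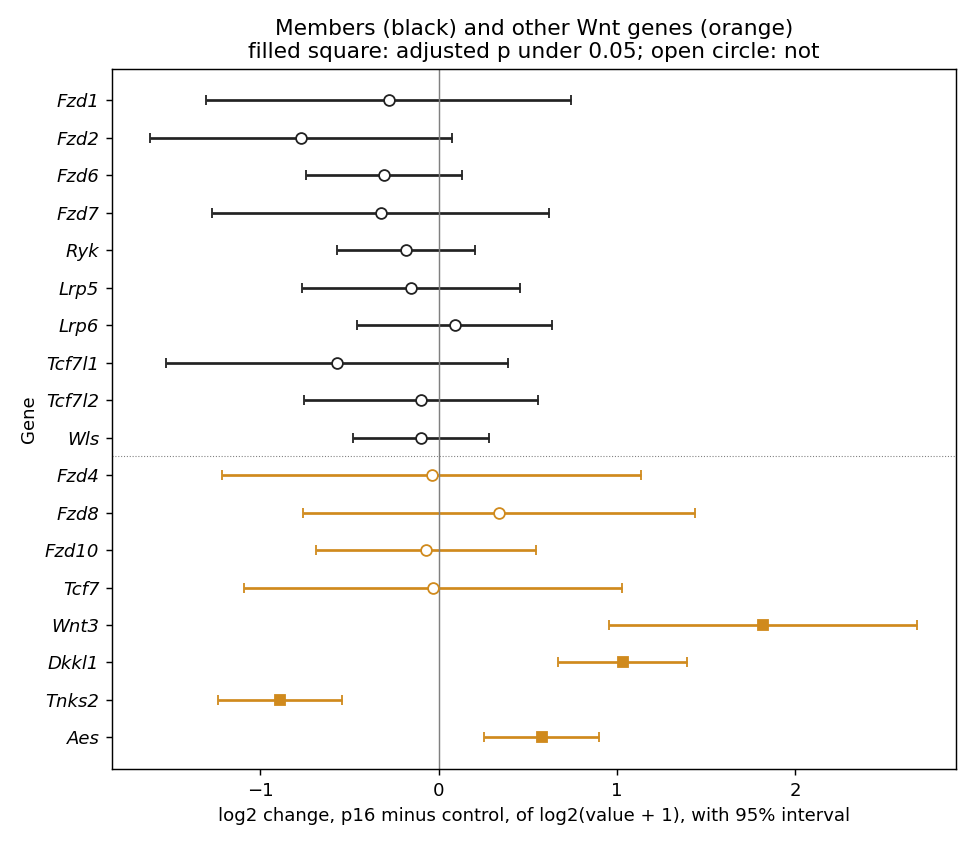
The log2 change, p16 minus control, on the log2(normalised read count + 1) scale (x axis) with its 95% interval for the 10 members (black) and 8 other Wnt genes (orange), listed down the y axis. The intervals of all 10 members cross 0, that of Fzd2 reaching from -1.62 to 0.07, while Wnt3, Dkkl1, Tnks2 and Aes (filled squares) lie clear of 0.

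How large a difference these papillomas leave possible varied among the members. For 6 of them (Fzd6, Ryk, Lrp5, Lrp6, Tcf7l2 and Wls) the 95% interval lay within a 2-fold difference in either direction, as it did for 57.4% of all genes tested. For the other 4 (Fzd1, Fzd2, Fzd7 and Tcf7l1) the interval reached beyond 2-fold lower in p16 papillomas, and for none did it reach 2-fold higher. The tightest interval, that of Wls, ran from 0.718-fold to 1.22-fold. The widest, that of Fzd1, ran from 0.404-fold to 1.68-fold.

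The change was negative for 9 of the 10 members, where 52.1% of all tested genes had a negative change, and the members' median was -0.23, beside -0.02 over all genes tested. The count was also 9 with library totals and with TMM factors as the scaling, and 6 to 10 over all alternatives in which the 10 were tested. The members share the same libraries, so these counts are a description and carry no test. The summed level of the 10 members was 752, 738 and 790 normalised read counts in p16 papillomas and 810, 907, 872 and 817 in control papillomas, which do not overlap. Fzd6, Lrp6, Ryk and Wls made up 71.0% to 79.0% of each sum. The separation depended on the scaling, for as CPM (member reads scaled to the papilloma's library total) the sum was 232, 220 and 246 in p16 papillomas and 230, 276, 281 and 249 in control papillomas, which overlap.

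No papilloma was low or high for all the members. Papilloma 1 of the p16 group was the lowest of the 7 for 4 members (Fzd6, Fzd7, Ryk and Tcf7l1) and the highest for 2 (Lrp5 and Wls). Papilloma 2 of the p16 group, with its high muscle sum, was the lowest for Fzd2 and Wls. Control papilloma 3, with the highest hair follicle stem cell sum, was the highest for Fzd1, Fzd7 and Tcf7l2. With the mean level of the muscle and adipocyte lists, the fibroblast list or the basal keratinocyte list as a covariate, 0 of the 10 members had an adjusted p under 0.05. At an unadjusted p under 0.05 the first of these fits held Tcf7l1 and Fzd6 (log2 changes -1.76 and -0.69, adjusted p = 0.162 and 0.333), the second held Fzd2 (-1.10, adjusted p = 0.181) and the third none.

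**Figure D3:**
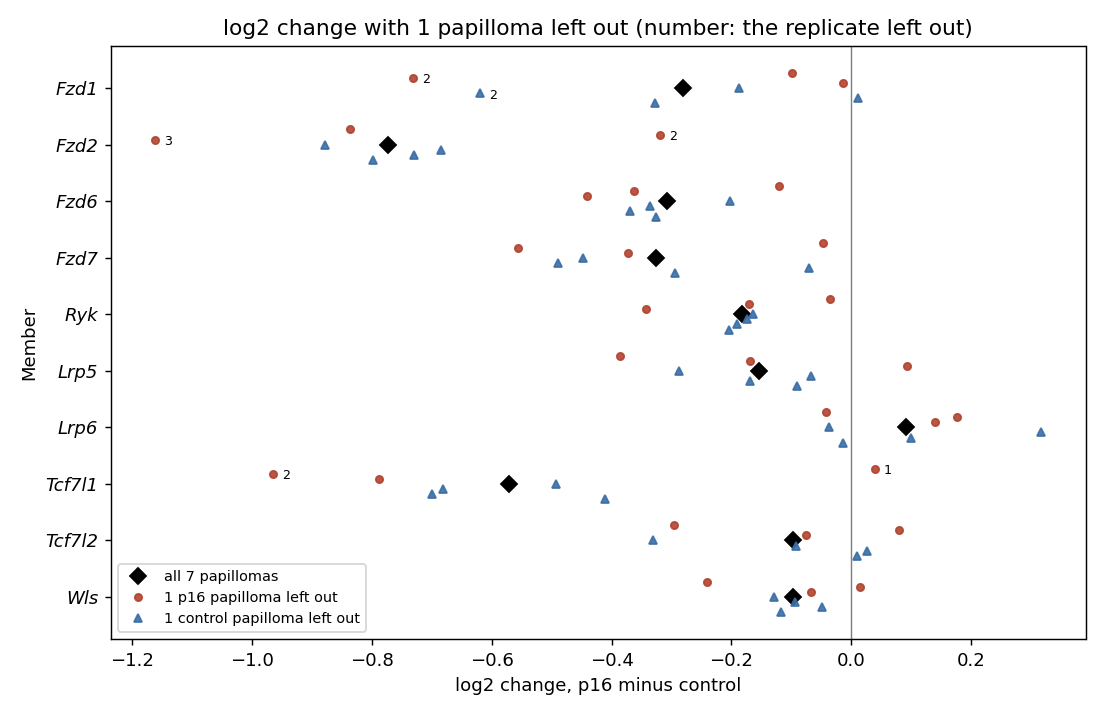
The log2 change, p16 minus control (x axis), of each member (y axis) with all 7 papillomas (black diamond), with 1 p16 papilloma left out (red circles) and with 1 control papilloma left out (blue triangles), where numbers name the replicate left out if the change moved by more than 0.3. Tcf7l1 moves to 0.04 without p16 papilloma 1, Fzd2 ranges from -1.16 to -0.32, and Ryk, Fzd2, Fzd6 and Fzd7 stay below 0 throughout.

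The remaining frizzled receptors gave no call either. Fzd10, the most read of them, gave 114, 252 and 170 normalised read counts in p16 papillomas and 124, 245, 164 and 202 in control papillomas, so that each group spanned about the same range (log2 change -0.07, 95% interval -0.69 to 0.55, adjusted p = 0.919). Fzd4, the norrin receptor known from blood vessels and not marked by the authors as expressed in sorted keratinocytes, gave 5.38, 34.7 and 21.3 in p16 papillomas and 17.9, 19.3, 21.0 and 10.5 in control papillomas. Its p16 values lay on both sides of the control values (log2 change -0.04, 95% interval -1.21 to 1.13, adjusted p = 0.979), and the sign changed with edgeR and with DESeq2 (0.14 and 0.17). Fzd8 gave 12.1, 14.5 and 11.8 in p16 papillomas and 6.83, 7.25, 24.7 and 7.38 in control papillomas, where papilloma 3 stood above the p16 values and the other 3 below them (log2 change 0.34, 95% interval -0.76 to 1.44, adjusted p = 0.747). Fzd3, Fzd5 and Fzd9 were below the filter on low values. Fzd3 had 3 reads in the p16 group and 10 in the control group, Fzd5 had 9 and 28, and Fzd9 had 1 and 2. These totals come from 3 and 4 papillomas with unequal read numbers, so they do not compare the groups. Fzd3 gave 1.35, 0 and 1.47 normalised read counts in p16 papillomas and 1.71, 3.62, 1.83 and 3.16 in control papillomas. The groups did not overlap, but each value rested on 0 to 3 reads. The values of Fzd5 and Fzd9 overlapped.

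Of the other TCF/LEF factors, Tcf7 (Tcf1) gave 8.07, 23.2 and 16.9 normalised read counts in p16 papillomas and 11.1, 20.5, 26.5 and 8.43 in control papillomas, with a log2 change of -0.03 (95% interval -1.09 to 1.03, adjusted p = 0.981). Lef1 was below the filter, with 2.69, 2.89 and 9.56 in p16 papillomas and 5.12, 0, 0 and 2.11 in control papillomas, where a count of 0 reads allows up to 3.62 and 2.74 normalised read counts (3 reads, a one-sided limit for counting error only). Axin2, the target gene most often read as a measure of canonical Wnt activity, was below the filter too. It gave 12.1, 5.79 and 11.8 normalised read counts in p16 papillomas and 4.27, 7.25, 3.65 and 2.11 in control papillomas. The groups overlapped through p16 papilloma 2, whose value rested on 2 reads, and the p16 mean of 9.89 ± 3.55 (SD, n = 3) was 2.29 times the control mean of 4.32 ± 2.15 (SD, n = 4). With no filter on low values the log2 change of Axin2 was 1.06 (adjusted p = 0.314), and the other 4 genes below the filter had adjusted p-values of 0.364 to 0.923.

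Beyond the receptors and factors, 10 lists of other Wnt pathway genes held 103 genes, of which 92 were in the table and 58 were tested. Of these, 3 rose and 1 fell, or 6.90% against 5.62% of all genes. No gene passed among 3 other frizzled receptors, 1 other TCF/LEF factor, 2 other co-receptors, 4 genes of the R-spondin axis, 7 of the secretion route and 6 planar polarity partners tested. One gene passed in each of the remaining 4 lists, which had 6 ligands, 5 secreted antagonists, 13 genes of the Dishevelled, beta-catenin and destruction complex group and 11 TCF cofactors tested. The median log2 changes of the lists lay between -0.33 (Wnt ligands) and 0.64 (other co-receptors).

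Wnt3, a ligand of the canonical pathway, rose. It gave 72.6, 95.5 and 46.3 normalised read counts in p16 papillomas and 10.2, 18.1, 17.3 and 36.9 in control papillomas, with every p16 papilloma above every control papilloma. The log2 change was 1.82 (SE 0.40, adjusted p = 0.0214). The call was lost without p16 papilloma 1, p16 papilloma 2 or control papilloma 2 (adjusted p = 0.0727, 0.0955 and 0.0527), with log2 changes of 1.55 to 2.14 whichever papilloma was left out.

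Dkkl1 rose as well, at 219, 197 and 175 normalised read counts in p16 papillomas, against 88.0, 93.0, 95.9 and 105 in control papillomas. The groups were far apart for their spread (log2 change 1.03, SE 0.17, adjusted p = 0.00404). It stands in the list of secreted antagonists by its likeness to the Dickkopf proteins and is best known from sperm.

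Tnks2, a tankyrase that marks axin for degradation, fell. It gave 426, 443 and 429 normalised read counts in p16 papillomas and 623, 888, 824 and 917 in control papillomas, a log2 change of -0.89 (SE 0.16, adjusted p = 0.00747). The 3 p16 papillomas lay close together, all below the lowest control papilloma.

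Aes, a short relative of the Groucho co-repressors that bind TCF factors, gave 587, 619 and 571 normalised read counts in p16 papillomas, against 430, 344, 455 and 367 in control papillomas. It rose by the smallest amount of the 4 (log2 change 0.58, SE 0.15, adjusted p = 0.044). The call was lost without any single p16 papilloma and without control papilloma 2 or 5 (adjusted p = 0.0757 to 0.148), and with edgeR (0.0519), limma-voom (0.0545) and the fibroblast covariate (0.0749), although the groups did not overlap. With the basal covariate, or the muscle and adipocyte covariate, none of Wnt3, Dkkl1, Tnks2 and Aes passed (adjusted p = 0.0875 to 0.453). Their log2 changes were 2.45, 1.08, -0.55 and 0.45 with the basal covariate. With the muscle and adipocyte covariate the log2 changes were 1.85, 1.17, -0.87 and 0.60. Calls were also far fewer over the whole table, at 38 higher and 42 lower in the first fit and 29 and 24 in the second.

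**Figure D4:**
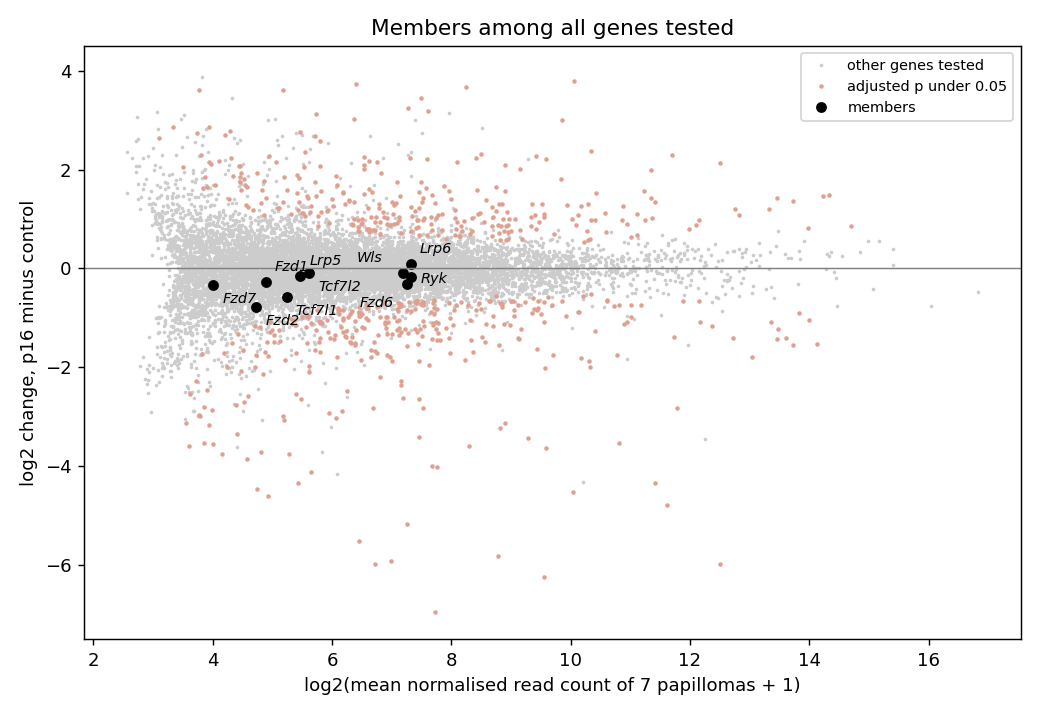
The log2 change, p16 minus control (y axis), against log2 of the mean normalised read count plus 1 over the 7 papillomas (x axis) for 10466 tested genes, with the 588 that passed in light red and the 10 members in black. The members lie inside the grey band of genes that did not pass, between -0.77 (Fzd2) and 0.09 (Lrp6).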

How the data were processed

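Whole papillomas (3 p16, 4 control) were profiled by CEL-Seq2, which reads transcript 3′ ends. Per the labels and the study's methods, the authors trimmed reads with Cutadapt, aligned them to GRCm38 with TopHat2, counted genes with HTSeq and normalised with DESeq2, with versions not given in the sources used here. The deposited signal values are these counts divided by 1 size factor per papilloma. All of them (100%) were whole multiples of 1 read (tolerance 0.001 reads), so reads were recovered, 1158035 to 4365391 per papilloma. The deposited table also holds another column, the authors' mark for genes expressed in sorted keratinocytes, and their own fold changes and p-values, which were not used. Its name says that a sample 4 of each group was left out, and neither was analysed here.

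The 10466 genes whose mean reached 10 in p16 or in control papillomas were tested with limma 3.58.1 (R 4.3.3, trend) on log2(value + 1), two-sided, without covariates, with Benjamini-Hochberg adjustment over all of them and a threshold of 0.05. A fold change on this scale understates the change of low genes. On the recovered reads the count test of edgeR 4.0.16 called 285 genes higher and 258 lower, and DESeq2 1.42.0 and limma-voom were run as well. Other alternatives were pseudocounts of 0.5 and 4, no filter or a minimum of 30, marked genes only, library totals, TMM factors, the replicate block, covariates from the fibroblast, muscle and adipocyte, or basal lists, and each papilloma left out. The procedure was also run on simulated data as a check of the code, and the outcome is not reported here. That run does not tell how often a change in a member would be missed. Named genes were the 10 members, all other frizzled receptors and TCF/LEF factors, Axin2, and every gene of 10 pathway lists that passed, while marker lists were given by their sums, and the marker genes named beside them were chosen after their values were seen. The count of basal keratinocyte markers that passed is not reported here. The members and lists were chosen with earlier results of these data known. The p16 transgene is human, and mouse Cdkn2a cannot serve as a check of the labels. Intervals on reads are exact Poisson and cover counting error only. Positions and sequences are from GENCODE M21.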

Additional observations from a re-analysis of the deposited data

Results flagged for a closer look

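Fzd8 stood apart in control papilloma 3, at 24.7 normalised read counts (27 reads), where the other control papillomas had 6.83, 7.25 and 7.38. The gap to the nearest of them was 0.969 of the group's range, above Dixon's 95% critical value for 4 samples. The control values of 23 genes were looked at in this way, and chance alone marks about 1 group in 20. The same papilloma was the highest of the 7 for Fzd1, Fzd7 and Tcf7l2 and had the highest hair follicle stem cell sum (1240, against 500 to 742 in the other control papillomas). The part of that list in these values was not tested.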

How the results depend on the processing

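Over 21 alternatives the 10 members gave 209 log2 changes, of which 0 passed, 188 kept their sign and 21 did not. Fzd1, Fzd2, Fzd7 and Tcf7l1 had the fewest reads of the members, 30 to 73 each in the p16 group. The replicate numbers showed no sign of pairing the samples (correlations of same-numbered deviations -0.09, -0.01 and -0.05). These correlations do not settle whether same-numbered papillomas shared a mouse, litter or batch, which the labels do not say. With the replicate block, in which control papilloma 5 has no partner and so does not inform the difference, 135 genes were higher and 135 lower in p16 papillomas, the log2 change was -0.015 for Lrp6 and 0.010 for Tcf7l2, and the calls of Tnks2 (adjusted p 0.0592) and Aes (0.210) were lost. With limma-voom 185 genes were lower. With the muscle and adipocyte covariate 29 genes were higher and 24 lower, and log2 changes were 0.16 for Lrp5, 0.55 for Tcf7l2 and 0.24 for Wls. With the basal covariate 38 were higher and 42 lower, and log2 changes were 0.21 for Lrp5, 0.30 for Tcf7l2, 0.52 for Fzd4, 0.73 for Fzd10 and 0.87 for Tcf7. With either of these 2 covariates the calls of Wnt3, Dkkl1, Tnks2 and Aes were lost. With the stromal covariate (fibroblast list) log2 changes were 0.33 for Fzd1, 0.16 for Fzd7, -0.043 for Lrp6, 0.064 for Tcf7l2, 0.20 for Fzd4, 0.16 for Fzd10 and 0.21 for Tcf7, and the call of Aes was lost. Fzd4 was also at 0.013 with a pseudocount of 4, 0.14 with edgeR and 0.17 with DESeq2. With 1 papilloma left out, 114 to 267 genes were higher and 153 to 281 lower, fewest without p16 papilloma 2. The log2 changes then ranged from -0.73 to 0.010 for Fzd1, -0.39 to 0.092 for Lrp5, -0.043 to 0.32 for Lrp6, -0.96 to 0.039 for Tcf7l1, -0.33 to 0.080 for Tcf7l2, -0.24 to 0.015 for Wls, -0.57 to 0.68 for Fzd4, -0.35 to 0.21 for Fzd10 and -0.34 to 0.37 for Tcf7. The cause of these changes was not tested, other than that fits without a papilloma hold fewer samples. Fzd7 was not tested at a minimum of 30.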
